A study of Mus musculus with 9 samples.

Results

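OP9, a stromal cell line from the calvaria of newborn mice, was compared with 2 stromal lines from the aorta-gonad-mesonephros (AGM) region of the mouse embryo, AGM-s3-A9 and AGM-s3-A7. All 9 arrays of the series entered: 3 of OP9, 3 of AGM-s3-A9 and 3 of AGM-s3-A7. OP9 and AGM-s3-A9 support hematopoiesis, and AGM-s3-A7 does not. The comparison was therefore between sites of origin, with a supportive and a non-supportive line together on the AGM side. Total RNA of every line was run on 1 Affymetrix array of each of 3 types, called MG-U74A, MG-U74B and MG-U74C, whose probe sets differ. A probe set counted as different only if OP9 lay at least 2-fold above both AGM lines or at least 2-fold below both. Its value is the ratio to the AGM line that lay closer to OP9, called the smaller fold below.

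No line was repeated on any array type, so no SD, p-value or replicate error can be given. The labels name no separate cultures, passages or treatments. Each site of origin outside the AGM is represented by OP9 alone. The calvaria, the newborn age, the donor genotype (op, described below) and the history of this 1 line can therefore not be told apart.

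Stromal cells hold blood-forming cells in place and feed them with membrane-bound and secreted factors, among them stem cell factor, the chemokine Cxcl12 and macrophage colony-stimulating factor. OP9 is widely used to grow lymphoid and myeloid cells from stem cells; it came from mice with the op mutation of Csf1, which leaves no functional macrophage colony-stimulating factor. Skull bone marrow stroma can form bone, fat and cartilage, whereas the AGM region holds the embryonic aorta with its surrounding mesenchyme and the early urogenital tissue.

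Intensities are given after quantile normalization within each array type. The detection level was the higher of the array type's median and the 95th percentile of its negative controls: 49.0 (MG-U74A), 52.8 (MG-U74B) and 61.5 (MG-U74C). Where the dimmer line did not exceed this level, the fold is a bound and is written as "at least". After an OP9 intensity, those of the AGM lines are given with AGM-s3-A9 first and AGM-s3-A7 second. Over the 9 arrays the 3' to 5' signal ratio of Gapdh ran from 0.88 to 1.002, and that of actin from 1.07 to 1.26. All 3 lines had the stromal receptor genes Pdgfra (1377 in OP9, against 1187 in AGM-s3-A9 and 1720.1 in AGM-s3-A7) and Pdgfrb (306 against 414 and 375). Of 30 hematopoietic cell markers on the arrays 4 exceeded the detection level, with summed intensities of 476 in OP9 against 649.8 and 676 in the AGM lines, and the leukocyte gene Ptprc was at or below 2.31. Of 23 endothelial markers 4 did, with sums of 348 against 795 and 489, and Pecam1, Cdh5 and Kdr were below the detection level in all lines. Of 19 epithelial markers 6 did, with sums of 647 against 648 and 702; Epcam was at 84.5 against 85.7 and 103, while the keratin genes Krt8 and Krt18 were below the detection level. None of the genes on these 3 lists was called in either direction.

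By probe set, 339 of 14000 above the detection level in at least 1 line were at least 2-fold higher in OP9 than in both AGM lines (2.42%), and 413 were lower (2.95%). By gene, with the probe set highest above the detection level standing for each, 237 of 8988 were higher (2.64%) and 303 were lower (3.37%). The same rule applied to AGM-s3-A9 gave 121 genes above both other lines (1.35%) and 48 below both (0.534%). For AGM-s3-A7 it gave 101 above (1.12%) and 78 below (0.868%). In single pairs, OP9 exceeded AGM-s3-A9 by at least 2-fold on 437 genes (4.86%) and lay below it on 569 (6.33%). It exceeded AGM-s3-A7 on 446 (4.96%) and lay below it on 516 (5.74%). Between the AGM lines 262 were higher in AGM-s3-A9 (2.91%) and 192 lower (2.14%). OP9 was thus the line that most often stood outside both others, though all 3 counts share the same arrays and were not compared by a test. How closely the AGM lines are related was not tested either.

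The AGM lines lay within 2-fold of each other for 218 of the 237 higher genes (92.0%) and for 267 of the 303 lower ones (88.1%). Over all 8988 genes, AGM-s3-A9 was at least 2-fold above AGM-s3-A7 on 2.91% and below it on 2.14%. Agreement of the AGM lines was thus not particular to the called genes. Where neither AGM line exceeded the detection level, it was fixed by raising both values to that level. The lower genes reached further. Of these, 77 were at least 4-fold and 19 at least 8-fold below both AGM lines, with a median smaller fold of 2.80. Of the higher genes 32 were at least 4-fold and 2 at least 8-fold above, with a median of 2.48. OP9 did not exceed the detection level for 98 of the lower genes, nor did either AGM line for 48 of the higher ones.

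**Figure D1:**
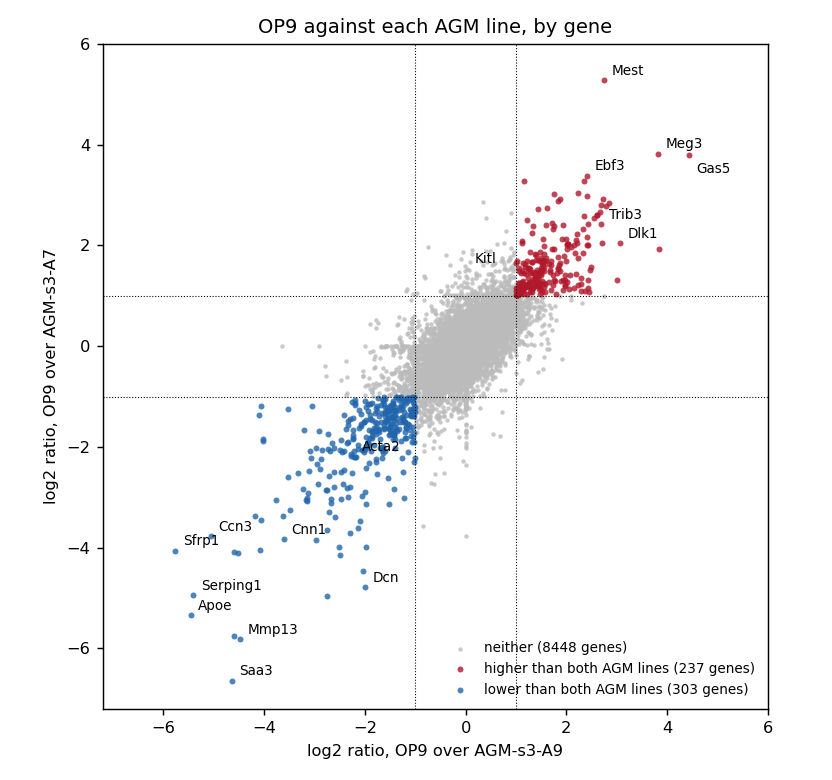
Log2 ratio of OP9 over AGM-s3-A9 (horizontal) against log2 ratio of OP9 over AGM-s3-A7 (vertical), 1 point per gene above the detection level in at least 1 line, with values raised to the detection level. Dotted lines mark 2-fold; the 237 genes higher than both AGM lines are at the upper right and the 303 lower ones, which reach further from 0, at the lower left. Both axes share the OP9 arrays, so points spread along the diagonal for that reason too.

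Amino acid and stress response genes driven by the transcription factor Atf4 were called in the higher direction in OP9 and in no case lower. Atf4 is translated when amino acids run short or unfolded protein accumulates, and it switches on amino acid synthesis, uptake and transfer RNA charging. Of 37 measured members of this list 11 were higher than both AGM lines and 0 lower (29.7%, against 2.64% of all genes), and 31 of the 37 lay above both AGM lines by any amount. This list and those below were chosen with earlier results of these data known, so their shares are descriptions only. All 37 exceeded the detection level in OP9, 30 in AGM-s3-A9 and 31 in AGM-s3-A7. A member above it in OP9 alone cannot come out lower. The median log2 ratio was 1.09 against AGM-s3-A9 and 0.67 against AGM-s3-A7, where all genes had 0.01 and 0.02. AGM-s3-A9 lay below AGM-s3-A7 on this list, with a median of -0.38.

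Trib3, a pseudokinase that feeds back on Atf4, had the largest smaller fold of the list, with intensities of 318 in OP9, against 43.8 in AGM-s3-A9 and 59.5 in AGM-s3-A7 (5.34-fold). Among the amino acid transporters, Slc7a1, which carries cationic amino acids, was at 207 against 40.96 and 78.2 (2.65-fold). Slc7a5, which carries large neutral ones, was at 1489 against 278 and 600.2 (2.48-fold). Among the enzymes, the asparagine synthetase gene Asns read 3201 against 653 and 1496, or 2.14-fold; of its 2 other measured probe sets both lay in the same direction and 1 reached 2-fold. Mthfd2, of the mitochondrial folate cycle, read 2277 against 565 and 941 (2.42-fold). The glycyl and seryl transfer RNA synthetase genes Gars and Sars were 2.67-fold and 2.36-fold higher, with Gars at 1496 against 357 and 561. The order AGM-s3-A9 below AGM-s3-A7 below OP9 held for Asns, Mthfd2, Gars, Slc7a5 and Chac1, a glutathione-degrading enzyme gene at 619.6 against 115 and 279 (2.22-fold). Atf3, a stress-induced repressor, was at 118 against 23.7 and 41.99 (at least 2.42-fold), on a probe set whose suffix marks possible cross-hybridisation; its second measured probe set lay in the same direction below 2-fold. Ppp1r15a, which restores translation after stress, was 2.02-fold higher.

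Atf4 itself was at 1648 in OP9, against 772 in AGM-s3-A9 and 1270.1 in AGM-s3-A7, or 1.30-fold, and was not called. Ddit3, the proapoptotic factor downstream of it, was at 369 against 114 and 218 (1.70-fold). Members of the same list that did not follow were the endoplasmic reticulum chaperone gene Hspa5 at 1852 against 1816 and 1476 and Xbp1, a factor of another branch of the unfolded protein response, at 491 against 559 and 705. Of the 11 called members, Asns, Gars and Mthfd2 lie on chromosome 6, whose genes were generally higher in OP9. Without the genes of chromosomes 6 and 15, 8 of 31 members were higher, with medians of 1.05 and 0.67.

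The promoters of this group are shown for the called members that hold the core of the Atf4 response element, TGATGNAA, on either strand within 250 bases before the annotated start. In RefSeq windows of GRCm38.p6, 10 of the 11 called members had an entry and 4 of them held the core; 9 of the 31 measured members with an entry held it (29.0%). The share was 2.28% over 7293 measured genes and 3.45% over all 32851 windows of this length. Of the 26 measured members not called higher 21 had an entry, and 5 of these held it (23.8%). A match of letters is a description and not a site. The core or its reverse complement is in capitals, each sequence is written 5' to 3' on the gene's strand, and the last base lies next to the start site.
Asns, chr6:7693210-7693459, minus strand: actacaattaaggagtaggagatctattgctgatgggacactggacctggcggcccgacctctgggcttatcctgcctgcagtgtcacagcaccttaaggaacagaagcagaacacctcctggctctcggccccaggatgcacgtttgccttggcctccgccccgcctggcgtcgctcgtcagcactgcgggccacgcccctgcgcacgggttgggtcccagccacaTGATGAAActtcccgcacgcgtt
Gars, chr6:55037751-55038000, plus strand: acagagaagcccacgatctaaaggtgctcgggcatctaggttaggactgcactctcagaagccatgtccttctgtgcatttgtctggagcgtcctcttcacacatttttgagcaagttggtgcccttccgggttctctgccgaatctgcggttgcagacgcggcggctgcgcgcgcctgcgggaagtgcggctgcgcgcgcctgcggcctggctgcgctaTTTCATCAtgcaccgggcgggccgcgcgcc
Atf3, chr1:191183334-191183583, minus strand: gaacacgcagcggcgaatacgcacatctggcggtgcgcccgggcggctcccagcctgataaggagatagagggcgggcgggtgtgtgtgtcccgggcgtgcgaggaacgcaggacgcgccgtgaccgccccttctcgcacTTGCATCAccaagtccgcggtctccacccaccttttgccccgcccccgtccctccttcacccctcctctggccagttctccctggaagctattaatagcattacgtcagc
Chac1, chr2:119350992-119351241, plus strand: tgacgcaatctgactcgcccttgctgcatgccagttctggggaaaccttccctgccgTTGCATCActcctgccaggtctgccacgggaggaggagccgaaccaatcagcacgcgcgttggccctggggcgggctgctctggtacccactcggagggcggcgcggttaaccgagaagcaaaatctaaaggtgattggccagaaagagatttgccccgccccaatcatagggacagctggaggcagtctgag
The core began 23 bases before the start site in Asns and 30 bases before it in Gars. In Atf3 it began 110 bases and in Chac1 193 bases before it. The forward spelling stands in Asns, and the reverse complement in Gars, Atf3 and Chac1. In OP9 these 4 genes read 3201, 1496, 118 and 619.6.

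Genes of a list of p53 targets and inhibitors of cyclin-dependent kinases were, where called, higher in OP9 with 1 exception, Sesn1. p53 halts the cell cycle after DNA damage, mainly through Cdkn1a, and Cdkn2a and Cdkn2b restrain cycling in ageing cultures. Of 30 measured members 10 were higher and 1 was lower (33.3% and 3.33%, against 2.64% and 3.37% of all genes), with median log2 ratios of 0.48 and 0.96. The detection level was exceeded by 28 in OP9 and by 22 in each AGM line. Cdkn1a, which encodes p21, was at 538 in OP9, against 174 in AGM-s3-A9 and 79.8 in AGM-s3-A7 (3.08-fold), and its second probe set was higher by over 2-fold too. Trp53inp1, a p53-induced cofactor of cell death, was at 514 against 110.3 and 125 (4.13-fold). Zmat3, an RNA-binding p53 target, was 3.30-fold higher, and Phlda3, an inhibitor of Akt, was at 1158 against 366 and 372 (3.11-fold). Sesn2, a stress sensor that the Atf4 list holds too, was 3.82-fold higher on a probe set of possible cross-hybridisation, whereas its relative Sesn1 was 3.11-fold lower, at 117 against 382 and 363. Gadd45g, a growth arrest gene, was 2.77-fold higher and the nuclease gene Aen at least 2.37-fold. The 10 higher members also include the noncoding transcript Gas5, described below.

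Gas5, a noncoding transcript that accumulates in arrested cells, had the largest smaller fold of the higher genes above the detection level in every line. It was at 3418 in OP9, against 157 in AGM-s3-A9 and 246 in AGM-s3-A7, or 13.9-fold, on a probe set of possible cross-hybridisation. A second probe set read 138 against 24.02 and 21.1, and the remaining one was at or below 5.22 in every line. The OP9 level stood far outside the AGM pair on both probe sets that exceeded the detection level.

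Cdkn2a and Cdkn2b, which lie side by side on chromosome 4, did not exceed the detection level in either AGM line. Cdkn2a was at 135 in OP9, against 14.3 in AGM-s3-A9 and 24.8 in AGM-s3-A7 (at least 2.76-fold) and Cdkn2b at 100.5 against 1.21 and 8.25 (at least 2.05-fold). Mtap, their neighbour in gene order and a methionine salvage enzyme gene, was at 309 against 19.995 and 2.51 (at least 5.85-fold). All 3 neighbours thus had signal in OP9 and none above the detection level in either AGM line. Beyond them on one side, the interferon gene Ifna4 and, on the other, Zfp352 and Elavl2 did not exceed the detection level in any line, so the array gives no reading there. Klhl9, 6 genes on the arrays before Mtap, was at 251 against 269 and 242, and Tusc1, 5 genes on the arrays after Mtap, ran the other way, at 1.52 against 169.8 and 150.2 (at least 2.44-fold lower). Whether these genes are present in the genome of either AGM line was not tested.

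Imprinted genes, which are expressed from 1 parental allele and often regulate growth, were higher in 6 of 21 measured cases and lower in 2 (28.6% and 9.52%, against 2.64% and 3.37%). The median log2 ratios were 0.46 and 0.43. The detection level was exceeded by 19 members in OP9, 13 in AGM-s3-A9 and 14 in AGM-s3-A7. Meg3, a maternally expressed noncoding transcript, was at 695 in OP9, against 9.95 in AGM-s3-A9 and 7.49 in AGM-s3-A7 (at least 14.2-fold); its second measured probe set read 300.1 against 6.48 and 8.40, and its 7 other probe sets did not exceed the detection level in any line. Dlk1, its paternally expressed neighbour on chromosome 12, which encodes a membrane protein that holds back fat cell differentiation, was at 1934 against 229.8 and 467 (4.14-fold). Of the next genes of that domain, Rtl1, Rian and Mirg were below the detection level in all lines. Mest, a paternally expressed gene of mesenchyme, was at 1903 against 282 and 45.01 (6.75-fold against AGM-s3-A9 and at least 38.8-fold against AGM-s3-A7). Its neighbour Copg2 was 2.06-fold higher and 2 further genes nearby, Tmem209 and Klhdc10, were 3.77-fold and 2.19-fold higher; all 4 lie on chromosome 6. Impact was 2.41-fold higher, on a probe set of possible cross-hybridisation. Grb10, a brake on insulin and IGF signalling, is of unsettled direction. The probe set standing for it, on MG-U74C, read 500.3 against 140 and 67.9, whereas another on MG-U74A read 5.57 against 106 and 119. Lower were Igf2 and decorin, described below. Without chromosomes 6 and 15, 4 of 16 members were higher and 2 lower.

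**Figure D2:**
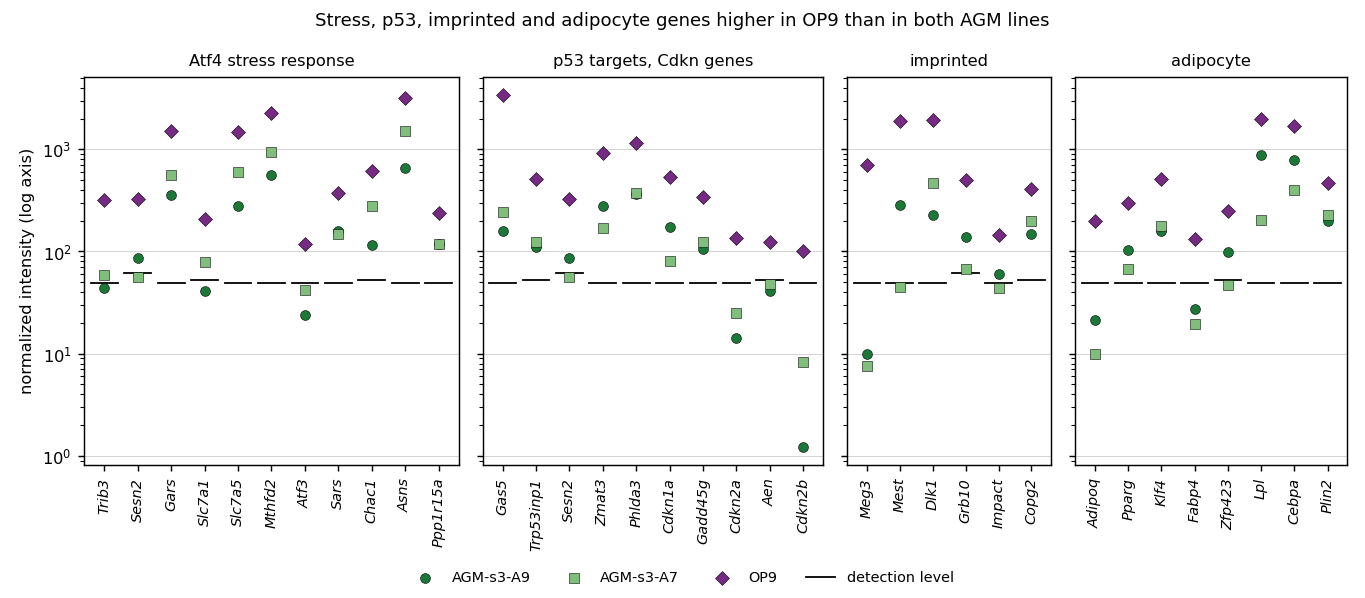
Normalized intensity (log axis) of the called higher members of 4 gene lists in AGM-s3-A9 (circles), AGM-s3-A7 (squares) and OP9 (diamonds), with a short line at the detection level of the array type; each point is 1 array. OP9 is above both AGM lines for every gene shown, as the choice of genes requires. Meg3, Cdkn2a, Cdkn2b, Aen, Atf3, Adipoq and Fabp4 do not exceed the detection level in either AGM line.

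Among genes of the fat cell lineage, which skull stroma can form, the higher calls prevailed. Of 23 measured adipocyte members 8 were higher and 1 lower in OP9 (34.8% and 4.35%, against 2.64% and 3.37% of all genes), with median log2 ratios of 0.17 and 0.33. By any amount, 12 members lay above both AGM lines and 8 below both, so the list as a whole shifted little. The factors that drive fat cell formation were among the higher ones. Pparg was at 299 in OP9, against 103 in AGM-s3-A9 and 68.1 in AGM-s3-A7 (2.91-fold, on a probe set of possible cross-hybridisation and on chromosome 6), Cebpa at 1702 against 787 and 401 (2.16-fold) and Zfp423, which marks committed preadipocytes, at 251 against 99.8 and 46.98 (2.51-fold). Klf4, which acts early, was 2.86-fold higher. Some products of fat cells were higher too. The hormone gene Adipoq was at 199.8 against 21.3 and 9.87 (at least 4.08-fold), the fatty acid carrier gene Fabp4 at 133 against 27.5 and 19.6 (at least 2.72-fold) and the lipoprotein lipase gene Lpl at 1974 against 878 and 203 (2.25-fold). Plin2, which coats lipid droplets, was 2.05-fold higher. Enzymes of fat synthesis did not join them: Fasn read 298 against 341 and 417 and Acaca 187 against 129 and 148, and Scd1, the stearoyl-CoA desaturase gene, was lower, at 81.95 against 446 and 350.3 (4.27-fold), with its second measured probe set also over 2-fold lower. A mixture of a few fat cells with many others and a low level in every cell cannot be told apart in such bulk RNA.

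G0s2, an inhibitor of fat breakdown, was at 327 in OP9, against 53.5 in AGM-s3-A9 and 53.7 in AGM-s3-A7 (6.09-fold). Hsd11b1, which activates glucocorticoids in fat and bone, was at 352 against 16.3 and 38.4 (at least 7.18-fold). The retinol carrier gene Rbp4 was at 339 against 2.65 and 4.21 (at least 6.91-fold), and Ppp1r3c, which targets a phosphatase to glycogen, was at least 6.33-fold higher. These 4 genes were among the leading higher genes and are not in the adipocyte list.

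Bone cell genes gave no common direction. Of 29 listed osteoblast genes 19 were on the arrays under 1 symbol and 11 were measured. Of these 2 were higher and 1 lower (18.2% and 9.09%, against 2.64% and 3.37% of all genes), with median log2 ratios of -0.57 and -0.06. Alkaline phosphatase, the early osteoblast enzyme encoded by Alpl, was at 12.97 in OP9, against 37.01 in AGM-s3-A9 and 59.7 in AGM-s3-A7, above the detection level in AGM-s3-A7 alone. Ibsp, a late mineralisation gene, was below it in all lines. Runx2, Sp7, Bglap and Spp1 were not analysed here. Dlx5, a homeobox factor of skull bone on chromosome 6, was at 203 against 93.03 and 32.03 (2.18-fold). Tnfrsf11b, which encodes the osteoclast inhibitor osteoprotegerin, was at 437 against 185 and 152 (2.36-fold). Sparc, a bone matrix protein gene that many stromal cells express, was 2.68-fold lower, at 983 against 2632 and 3240.3, and the type I collagen genes Col1a1 and Col1a2 were not called, at 3539 against 6684 and 6174 and at 3379 against 5001 and 5555. Without chromosomes 6 and 15 the osteoblast list kept 6 members, of which 0 were higher.

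Of 7 measured cartilage genes 2 were higher and 0 lower (28.6% higher, against 2.64% of all genes). Sox9, the master regulator of cartilage, was at 577 in OP9, against 229.7 in AGM-s3-A9 and 111 in AGM-s3-A7 (2.51-fold), with both other measured probe sets in the same direction and 1 of them over 2-fold. Comp, a cartilage matrix protein gene, was at 168 against 5.71 and 6.37 (at least 2.73-fold). The cartilage collagen gene Col11a1 was at 457 against 506 and 919 and was not called.

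Transcriptional regulators were among the leading higher genes. Ebf3, a transcription factor gene of bone marrow stroma that keeps the hematopoietic niche open, was at 619 in OP9, against 116 in AGM-s3-A9 and 59.4 in AGM-s3-A7 (5.35-fold), and its second measured probe set was over 2-fold higher as well. Its relative Ebf1 was not called, at 418 against 399.6 and 292. Atoh8, a helix-loop-helix factor gene on chromosome 6, was at 1228 against 191 and 177 (6.42-fold). Irx3, a homeobox factor gene that patterns limb, nerve and fat, was at 562 against 122 and 131 (4.29-fold). Id1 and Id2, inhibitors of helix-loop-helix factors that BMP signalling induces, were at 502 against 106 and 60.8 (4.72-fold) and at 337 against 67.1 and 93.5 (3.60-fold). Of 15 measured craniofacial regulators 2 were higher and 1 lower (13.3% and 6.67%, against 2.64% and 3.37% of all genes). The higher ones were Dlx5 and the neural crest factor gene Snai2 at 2476 against 1045 and 1094 (2.26-fold). In the same list Zic1 was lower, at 2.33 against 442 and 409.6 (at least 8.36-fold), and a second probe set read 2.57 against 101 and 70.3. Of 16 trunk and urogenital regulators 3 were higher and 0 lower (18.8% higher, against the same 2.64%): Irx3, Meis2 (2.68-fold) and Amhr2, the receptor for anti-Müllerian hormone, at 166 against 21.2 and 63.3 (2.62-fold), on a probe set of possible cross-hybridisation. The other probe sets of Amhr2 did not exceed the detection level in any line.

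Hox genes record position along the trunk and are silent in much of the skull. Of 17 measured members 0 were higher and 5 lower in OP9 (29.4%, against 3.37%), with median log2 ratios of -0.49 and -0.66. The detection level was exceeded by 10 members in OP9, 13 in AGM-s3-A9 and 16 in AGM-s3-A7. A member not above it in OP9 cannot come out higher. Hoxb6 was at 54.4 in OP9, against 245 in AGM-s3-A9 and 251 in AGM-s3-A7 (4.51-fold), Hoxb2 at 68.1 against 205 and 193 (2.83-fold) and Hoxd8 at 74.4 against 200.01 and 239 (2.69-fold). Hoxb7 was at least 2.86-fold lower and Hoxb4 2.90-fold, the latter on 1 of 4 probe sets, with possible cross-hybridisation, while the other 3 were at or below the detection level. The AGM lines lay within 2-fold of each other on all 5. Hoxb5 and Hoxa7 had signal in both AGM lines and none above the detection level in OP9, with bounds of at least 1.69-fold and at least 1.49-fold. Hoxc8 was above the detection level in AGM-s3-A7 alone, at 214. So were Hoxb3, Hoxc4 and Hoxd9, at 64.6, 85.6 and 57.03. Hoxb8 was not called, at 81.3 against 114 and 90.5 on a probe set of possible cross-hybridisation. The Hoxa cluster lies on chromosome 6, and its 6 measured genes differed in direction. Hoxa5 lay below both AGM lines, at 70.1 against 247 and 83.4, as did Hoxa7, while Hoxa3 was at 161 against 149 and 104 and Hoxa2 at 102 against 69.4 and 65.9, above both. On probe sets of possible cross-hybridisation, Hoxa4 was at 218 against 269.8 and 207 and Hoxa6 at 64.6 against 74.4 and 48.9. None of the 6 was called, and OP9 exceeded the detection level on all but Hoxa7. Without chromosomes 6 and 15, the 9 remaining members had medians of -1.43 and -1.502, and all 5 lower genes were among them.

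Smooth muscle genes were the list with the highest share of lower members. Contractile smooth muscle and the cells around the aorta express actin, calponin, transgelin and myosin isoforms under serum response factor. Of 25 measured members 10 were lower in OP9 and 0 higher (against 3.37% of all genes), and 18 lay below both AGM lines by any amount. The detection level was exceeded by 21 members in OP9 and by 24 in each AGM line. A member not above it in OP9 cannot come out higher. The median log2 ratio was -0.77 against AGM-s3-A9 and -0.85 against AGM-s3-A7, and 0.00 between the AGM lines. Cnn1, which encodes calponin, was at 3.23 in OP9, against 599 in AGM-s3-A9 and 700.3 in AGM-s3-A7 (at least 12.2-fold), on a probe set of possible cross-hybridisation. The tropomyosin gene Tpm2 was at 38.4 against 668 and 407 (at least 8.31-fold). Acta2, which encodes smooth muscle actin, was at 581 against 2684 and 2664 (4.58-fold), so that OP9 kept a clear signal; another probe set was below the detection level in all lines. Tagln, which encodes transgelin, was at 490.1 against 1877 and 1861 (3.80-fold). The enteric actin gene Actg2 was 4.11-fold lower, on a probe set of possible cross-hybridisation, and the cardiac actin gene Actc1, the 1 lower skeletal muscle marker, was 2.31-fold lower on such a probe set too. The LIM protein genes Csrp1 and Csrp2 were 3.55-fold and 2.65-fold lower, Mylk, which encodes myosin light chain kinase, 3.15-fold, Lmod1 at least 2.42-fold and the light chain gene Myl9 2.12-fold.

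Myh11, the smooth muscle myosin gene that marks mature cells, was near the detection level in every line, at 61.3 in OP9, against 70.99 in AGM-s3-A9 and 49.3 in AGM-s3-A7. General cytoskeletal members were not called: Actn1 read 1289 against 1013 and 1314, Cald1 1713 against 1460.5 and 1905 and Tpm1 1420.2 against 1500.0 and 2064, and Srf, which encodes serum response factor itself, 120.3 against 154 and 116. Tmsb4x, which encodes the actin monomer binder thymosin beta 4 and is in no list, was 5.68-fold lower, at 457 against 2777 and 2595. The CArG box, the element bound by serum response factor, was found in the 250 bases before the start of 5 of 21 measured members with an entry (23.8%), against 1.36% of measured genes and 1.47% of all windows. Of the 7 called members with an entry 1, Myl9, held it.

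Matrix glycoprotein and proteoglycan genes were lower in OP9 wherever they were called. Of 52 measured members 13 were lower and 0 higher (25.0% lower, against 3.37% of all genes), with median log2 ratios of -0.69 and -0.45. The detection level was exceeded by 36 members in OP9, 47 in AGM-s3-A9 and 49 in AGM-s3-A7. A member not above it in OP9 cannot come out higher. The collagen-binding proteoglycan gene Fmod was at 9.06 in OP9, against 1184 in AGM-s3-A9 and 837 in AGM-s3-A7 (at least 17.1-fold). Decorin, encoded by Dcn, differed widely between the AGM lines and was lowest in OP9, at 21.2 against 196 and 1349 (at least 3.997-fold). The growth factor binding proteins Ccn3 and Ccn4 were at least 13.6-fold and 4.05-fold lower, with Ccn3 at 5.84 against 1622 and 668. Tgfbi, an adhesion protein gene induced by TGF-beta, was at 3.93 against 552 and 466 (at least 9.51-fold). The fibulin gene Fbln1 was at 161 against 1433 and 1302 (8.10-fold, on a probe set of possible cross-hybridisation), with both other measured probe sets over 2-fold lower. Emilin2, an elastic fibre protein gene, was at least 5.56-fold lower. The microfibril genes Mfap5 and Mfap2 were at least 4.11-fold and at least 2.58-fold lower, and the basement membrane genes Nid1 and Nid2 3.73-fold and 3.58-fold. Thbs2, an inhibitor of vessel growth, was 2.67-fold lower. Ccn3, Ccn4 and Fbln1 lie on chromosome 15 and Mfap5 on chromosome 6; without the genes of these chromosomes 9 of 43 members were lower, with medians of -0.53 and -0.30.

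Of 23 measured collagen genes 3 were lower and 1 higher (13.0% and 4.35%, against 3.37% and 2.64% of all genes). Col3a1, the fibrillar collagen of vessel walls and loose tissue, was at 549.6 in OP9, against 3597 in AGM-s3-A9 and 3281 in AGM-s3-A7 (5.97-fold), and both other measured probe sets were over 2-fold lower. Col7a1 and Col16a1 were 3.27-fold and 2.01-fold lower. Col8a1, a short-chain collagen of vessels and membranes, was the 1 higher, at 1717 against 606 and 641 (2.68-fold).

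Matrix proteases and their inhibitors were lower in 7 of 29 measured cases and higher in 1 (24.1% and 3.45%, against 3.37% and 2.64% of all genes). The median log2 ratios were -0.44 and -0.63. All 29 exceeded the detection level in each AGM line and 21 did in OP9. A member not above it in OP9 cannot come out higher. Mmp13, the collagenase of bone and cartilage, was at 15.6 in OP9, against 1091 in AGM-s3-A9 and 2769 in AGM-s3-A7 (at least 22.3-fold), highest in AGM-s3-A7. Plat, which encodes tissue plasminogen activator, was at 61.6 against 755 and 639.8 (10.4-fold). Mmp9, a gelatinase gene, was at least 2.37-fold lower, Adam19 3.18-fold, the cathepsin gene Ctsh at least 2.60-fold and the aggrecanase gene Adamts4 at least 2.48-fold. The inhibitors went opposite ways. Timp1 was lower, at 541 against 1436 and 1934 (2.65-fold), and Timp3, which binds to matrix, was higher, at 663 against 119 and 231 (2.87-fold).

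**Figure D3:**
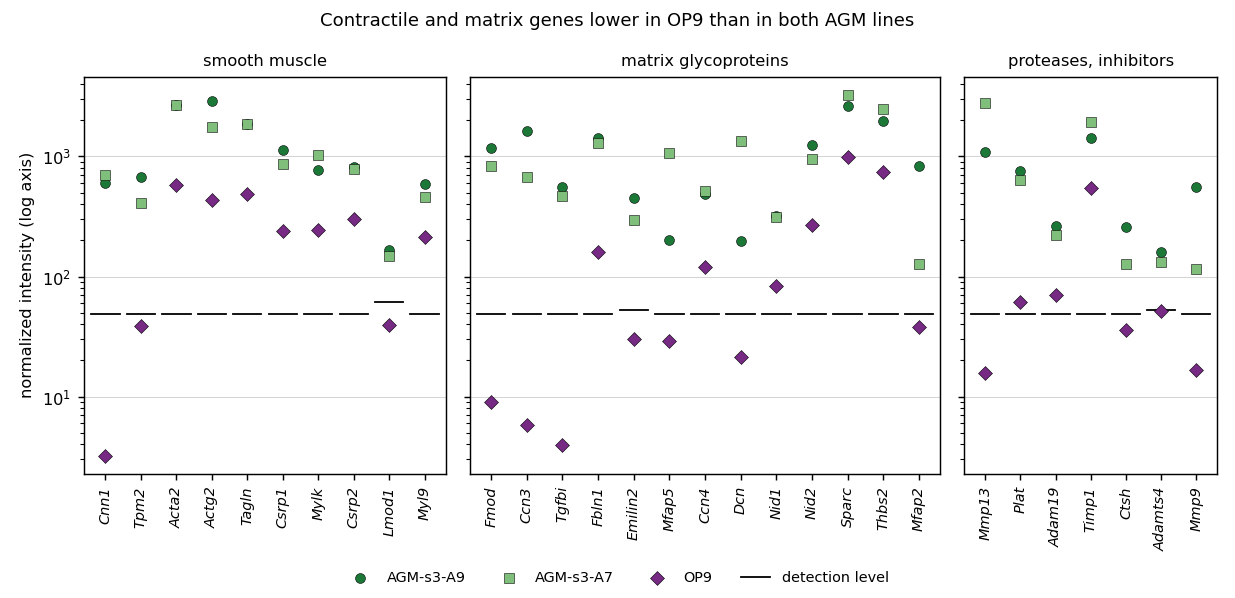
Normalized intensity (log axis) of the called lower members of 3 gene lists in AGM-s3-A9 (circles), AGM-s3-A7 (squares) and OP9 (diamonds), with a short line at the detection level of the array type; each point is 1 array. OP9 is below both AGM lines for every gene shown, as the choice of genes requires, and is under the detection level for Cnn1, Tpm2, Lmod1, Fmod, Ccn3, Tgfbi, Dcn and Mmp13 among others. Mfap5, Dcn and Mfap2 also differ widely between the AGM lines.

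Factors by which stroma supports blood-forming cells were called in both directions. Of 25 measured members 2 were higher in OP9 than in both AGM lines and 4 lower (8% and 16%, against 2.64% and 3.37% of all genes), with median log2 ratios of 0.03 and 0.22. Kitl, the stem cell factor gene, was at 1270.1 in OP9, against 1243 in AGM-s3-A9 and 438 in AGM-s3-A7, so that OP9 lay beside AGM-s3-A9 and above AGM-s3-A7. Cxcl12, which retains stem cells, was at 4860.1 against 4213 and 2712. Csf1 read 1804 against 1260.0 and 719 and was not called; an expression array reports RNA and not whether the op allele yields protein. The adhesion receptor gene Vcam1 was at 907 against 506 and 387 (1.79-fold) on the probe set standing for it. Its other probe sets read 149 against 171 and 122, and 193 against 154 and 98.9, so that 1 of these did not put OP9 above both AGM lines. The Notch ligand gene Jag1 was just under the threshold, at 536 against 274 and 146 (1.96-fold). Il7, the cytokine that B cell precursors need, was above the detection level in OP9 alone, at 125 against 36.2 and 23.1 (at least 2.37-fold). Dlk1 was the other higher member. Lower were Ccn3, Igf2 at 877 against 2712 and 2612 (2.98-fold, on a probe set of possible cross-hybridisation), Angpt2, a vessel-destabilising ligand of Tie2, at 3.34 against 296 and 517 (at least 6.03-fold), and the BMP antagonist gene Grem1 at 4.24 against 107 and 198 (at least 2.03-fold).

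In the Wnt pathway 3 of 37 measured members were lower and 1 higher (8.11% and 2.70%, against 3.37% and 2.64% of all genes), with median log2 ratios of -0.32 and -0.45. The 3 were the Wnt-binding proteins Sfrp1 at 45.1 in OP9, against 2861 in AGM-s3-A9 and 882 in AGM-s3-A7 (at least 16.7-fold), Sfrp2 at 357 against 2371 and 1202 (3.37-fold) and Sfrp4 at 2.49 against 816 and 112 (at least 2.28-fold). The second measured probe set of Sfrp1 was over 2-fold lower too. Rspo3, a secreted amplifier of Wnt signals, was the 1 higher, at 318 against 62.4 and 2.05 (5.11-fold), on a probe set of possible cross-hybridisation. The Sfrp proteins are known chiefly as antagonists of Wnt ligands.

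In the BMP and TGF-beta pathway 5 of 42 were lower and 2 higher (11.9% and 4.76%, against 3.37% and 2.64% of all genes), with median log2 ratios of 0.00 and -0.29. The higher ones were the target genes Id1 and Id2. Besides Tgfbi and Grem1, the BMP antagonist gene Nbl1 was lower, at 66.7 in OP9, against 335 in AGM-s3-A9 and 530.4 in AGM-s3-A7 (5.02-fold), and Bmp1, which encodes a procollagen-cleaving protease, was at 121 against 759 and 462 (3.81-fold). The endothelial-type receptor gene Acvrl1 was 2.45-fold lower on 1 of 4 probe sets, of possible cross-hybridisation, the others not reaching 2-fold. Another of the 4 put OP9 between the AGM lines, at 79.9 against 77.6 and 96.2. In the IGF axis 3 of 14 were lower and 1 higher (21.4% and 7.14%, against the same 3.37% and 2.64%). The lower ones were Igf2 and the binding protein genes Igfbp2 at 8.56 against 893 and 506 (at least 10.3-fold) and Igfbp6 at 7.44 against 281 and 774 (at least 5.74-fold); the 1 higher was Grb10, of unsettled direction. Igf1 was at 311 against 930.3 and 439 and was not called. In the Notch pathway 1 of 17 members was higher (5.88%, against 2.64% of all genes), the noncanonical ligand gene Dlk1, and 0 were lower, with median log2 ratios of 0.41 and 0.48. In the FGF and Sprouty pathway 0 of 20 were called in either direction; Spry1 was at 933 against 737 and 129 and Spry2 at 337 against 1154 and 235, so that the AGM lines differed from each other there.

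Inflammatory genes were lower in OP9 in most called cases, and complement genes had no common direction. Of 24 measured inflammatory mediators 5 were lower and 2 higher (20.8% and 8.33%, against 3.37% and 2.64% of all genes), with median log2 ratios of -0.36 and -0.51. Saa3, an acute phase protein gene, read 14.8 in OP9, against 1221 in AGM-s3-A9 and 4898 in AGM-s3-A7 (at least 24.9-fold), and the monocyte chemokine gene Ccl2 at 256 against 2269 and 2147 (8.37-fold). Its neighbour Ccl7 was 2.53-fold lower, the alarmin gene Il33 at least 3.96-fold (on a probe set of possible cross-hybridisation) and the interleukin-1 receptor gene Il1r1 2.04-fold. Ptx3, a soluble pattern receptor gene, ran the other way at 2712 against 528 and 281 (5.13-fold), with 2 other probe sets below the detection level in all lines. The chemokine gene Ccl9 was also higher, at 1325 against 488 and 199 (2.72-fold). Of 9 measured complement genes 2 were lower and 1 higher (22.2% and 11.1%). By any amount, 3 lay above both AGM lines and 3 below both, with median log2 ratios of 0.10 and -0.26. Serping1, which encodes the C1 inhibitor, was at 54.3 against 2296 and 1665, and its 30.7-fold was the largest smaller fold among the lower genes above the detection level in every line. Cd59a, which blocks the lytic pore, was 3.41-fold lower, and Masp1, a protease gene of the lectin pathway, was 2.44-fold higher. On the second measured probe set of Masp1 OP9 lay between the AGM lines, at 67.1 against 29.3 and 109.8.

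Of 28 interferon response genes 4 were lower and 1 higher (14.3% and 3.57%, against 3.37% and 2.64% of all genes). The GTPase gene Ifi47 was at 25.3 in OP9, against 334 in AGM-s3-A9 and 352 in AGM-s3-A7 (at least 6.82-fold) and the factor gene Irf1 at 159 against 523 and 415 (2.60-fold). Ifi204 and Ifi202b, relatives on chromosome 1 whose probes may share transcripts, were 2.31-fold and at least 2.16-fold lower. The probe set of Ifi204 is of possible cross-hybridisation. Adar, an RNA-editing enzyme gene, was 2.22-fold higher. Among 18 antigen presentation genes 1 was higher, H2-DMb1 (2.89-fold, on a probe set of possible cross-hybridisation), and 1 lower, the immunoproteasome gene Psmb10 (2.06-fold). Each is 5.56% of that list, against 2.64% and 3.37% of all genes. The median of that list was -0.60 against AGM-s3-A9 and 0.00 against AGM-s3-A7, and 0.58 between the AGM lines, so OP9 was close to AGM-s3-A7 there.

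Apoe, which encodes the lipid carrier apolipoprotein E, had the largest bound of all lower genes. It was at 40.4 in OP9, against 2140.1 in AGM-s3-A9 and 1982 in AGM-s3-A7 (at least 40.5-fold), and 2 other probe sets were below the detection level in all lines. In its list of 37 measured sterol and fatty acid genes 5 were lower and 0 higher (13.5% lower, against 3.37% of all genes), with median log2 ratios of -0.05 and -0.26. The fatty acid desaturases made up most of them: besides Scd1, Fads2 was at 112 against 689.7 and 458 (4.09-fold, on a probe set of possible cross-hybridisation), with both other measured probe sets over 2-fold lower, and Fads1 was 2.31-fold lower. Cyp51, a sterol demethylase gene, was 2.05-fold lower. In the hypoxia and glycolysis list 3 of 32 members were lower and 1 higher (9.38% and 3.12%, against 3.37% and 2.64% of all genes). Ndrg1, a hypoxia-induced gene on chromosome 15, was at least 4.25-fold lower and the collagen-modifying enzyme genes P4ha1 and Plod1 2.75-fold and 2.42-fold. The heme oxygenase gene Hmox1 was higher, at 1877 against 538 and 914 (2.05-fold).

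Of 38 measured adhesion receptors 6 were lower and 1 higher (15.8% and 2.63%, against 3.37% and 2.64% of all genes). The collagen receptor gene Itga11 was at 69.8 in OP9, against 355 in AGM-s3-A9 and 489 in AGM-s3-A7 (5.09-fold), the neural adhesion gene Ncam1 at 90.6 against 707 and 368 (4.06-fold) and Amigo2, on chromosome 15, at 64.1 against 251 and 1016 (3.92-fold). Cd82 and Nectin2 were 2.14-fold and 2.03-fold lower, but on the second measured probe set of each OP9 lay between the AGM lines, at 87.3 against 92.8 and 78.7 for Cd82 and 181 against 248 and 179 for Nectin2. That of Ncam1 exceeded the detection level in AGM-s3-A9 alone, and gave no fold against AGM-s3-A7. Pcdh18, a protocadherin gene, was 2.34-fold lower on a probe set of possible cross-hybridisation. Icam1, a ligand for leukocyte integrins, was the 1 higher, at 257 against 76.2 and 9.74 (3.37-fold). Of 40 axon guidance genes 2 were lower and 3 higher (5% and 7.5%, against 3.37% and 2.64%), so that the lower share was near that of all genes. Slit3, a repellent ligand of Robo receptors, was at 4.59 against 1213 and 906 (at least 17.2-fold), on a probe set of possible cross-hybridisation. The ephrin gene Efna5 was higher, at 1076 against 354 and 203 (3.04-fold), and its probe set on MG-U74C read 862 against 400.3 and 298. Sema3a, a repellent that also protects bone, was 2.32-fold higher and the ephrin receptor gene Epha2 at least 2.03-fold. The netrin receptor gene Unc5c was 2.59-fold lower. Among 17 pericyte and stroma markers 4 were lower and Ebf3 was higher (23.5% and 5.88%, against 3.37% and 2.64% of all genes). Thy1, a surface marker of stromal cells, was at 4.61 against 416 and 206 (at least 4.21-fold), the limb and face factor gene Prrx2 at 201 against 654 and 822 (3.25-fold), the peptidase gene Anpep 2.37-fold lower and S100a4, a fibroblast gene, 2.32-fold lower. Prrx1, the relative of Prrx2, was not called, at 451 against 386 and 411.

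Genes in no list also stood far below both AGM lines. Plac8 was at 44.5 in OP9, against 1188 in AGM-s3-A9 and 2661 in AGM-s3-A7 (at least 24.2-fold), and the kininogen gene Kng1 at 26.9 against 819.5 and 533 (at least 10.9-fold). Npr3, the natriuretic peptide clearance receptor gene on chromosome 15, was at 86.7 against 809.8 and 617 (7.11-fold), and all 3 of its other measured probe sets were over 2-fold lower. The ribonuclease gene Rnase4 was 6.72-fold lower, the dynamin gene Dnm1 6.52-fold, Adamtsl3 5.74-fold (on a probe set of possible cross-hybridisation), Lmo7 5.63-fold and Nudt4 5.44-fold. For Pdxdc1 the probe set standing for the gene gave a bound of at least 16.6-fold lower, while 2 others were over 2-fold higher in OP9, and its direction is unsettled. Among higher genes in no list, the probe set annotated to Mir686 was at 1333 against 202 and 176 (6.60-fold), Lrba at 326 against 61.1 and 73.1 (4.46-fold) and Cyb5r1 at 1025 against 156 and 247 (4.16-fold). That of Cyb5r1 is of possible cross-hybridisation, and the gene's second measured probe set, below 2-fold, read 361 against 144 and 239. With neither AGM line above the detection level, Tram1l1 was at least 6.07-fold higher (on a probe set of possible cross-hybridisation), the adenylyl cyclase gene Adcy2 at least 5.40-fold, Kazald1 at least 5.02-fold, Epb41l4b at least 4.66-fold, Aldh1a7 at least 4.08-fold and Rpgrip1 at least 4.02-fold.

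**Figure D4:**
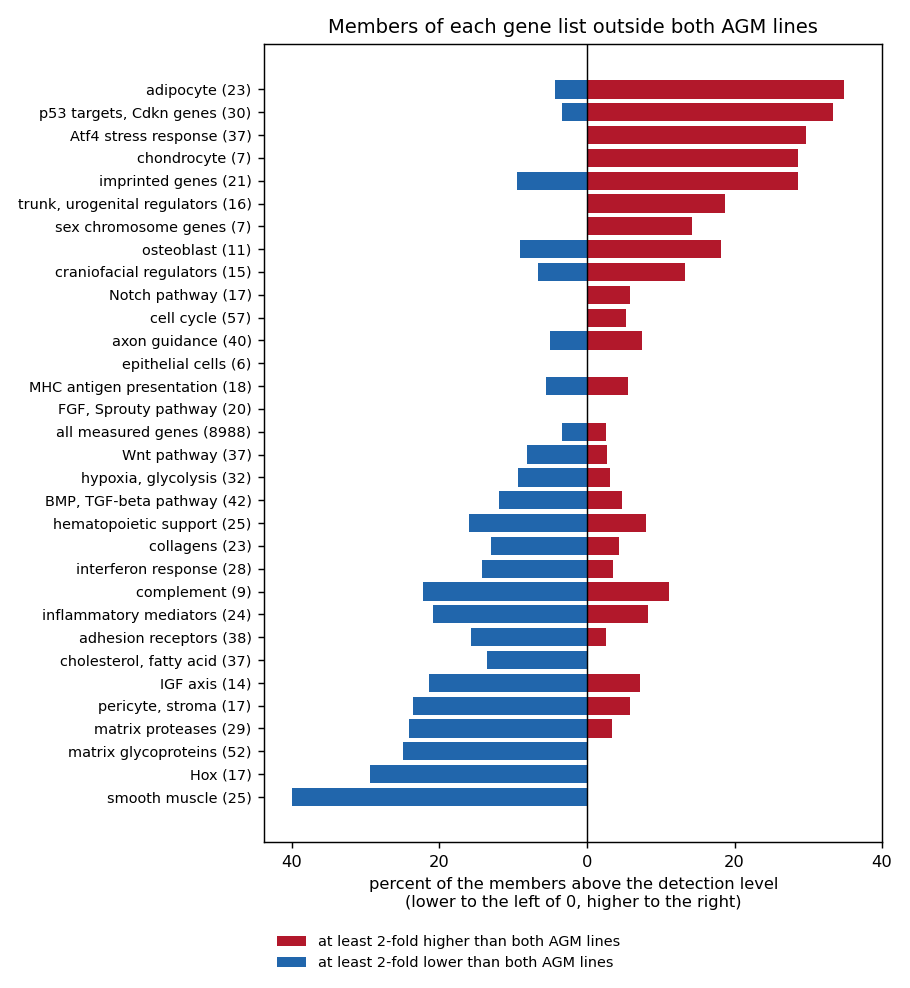
Percent of the measured members of each gene list that were at least 2-fold higher (red, to the right) or lower (blue, to the left) in OP9 than in both AGM lines, with the number of measured members in parentheses; lists with at least 5 are shown. The adipocyte (34.8%), p53 (33.3%) and Atf4 (29.7%) lists have the longest bars to the right and smooth muscle (10 of 25) and Hox (29.4%) the longest to the left, beside 2.64% and 3.37% of all measured genes.

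Proliferation did not set OP9 apart from both AGM lines. Of 57 measured cell cycle genes 3 were higher and 0 lower (5.26% higher, against 2.64% of all genes). The median log2 ratio was -0.14 against AGM-s3-A9 and 0.31 against AGM-s3-A7, with 0.43 between the AGM lines. Mki67, the proliferation antigen gene, was at 95.4 in OP9, against 133 in AGM-s3-A9 and 51.3 in AGM-s3-A7, so OP9 lay between the others. The 3 higher members were the G1 cyclins Ccnd2 at 396 against 84.5 and 118 (3.36-fold) and Ccnd1 at 871 against 396 and 279 (2.20-fold) and the replication licensing gene Mcm2 at 325 against 126 and 118 (2.57-fold). Ccnd2 and Mcm2 lie on chromosome 6, and without chromosomes 6 and 15 Ccnd1 alone was called of 53 members. On the sex chromosomes, Xist was below the detection level in all lines. The Y-linked gene Eif2s3y was at 67.9 against 143 and 6.58, and Kdm5d was above the detection level in OP9 alone, at 146 against 5.61 and 0.454 (at least 2.77-fold), on a probe set of possible cross-hybridisation.

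Genes of chromosome 6 were generally higher in OP9 than in either AGM line, and those of chromosome 15 generally lower. Over the 377 chromosome 6 genes above the detection level in all 3 lines, the median log2 ratio was 0.40 against both AGM lines and -0.01 between the AGM lines. Of these genes 67.4% lay above both AGM lines, and 44 were called higher (11.7%), against 157 of 7072 such genes on all chromosomes (2.22%), while 6 were called lower. Chromosome 6 thus gave 44 of the 157. Over the 305 genes of chromosome 15 the medians were -0.28 and -0.51, 67.2% lay below both AGM lines, and 24 were called lower (7.87%), against 204 of all (2.88%). The median between the AGM lines was -0.19 there. Over all chromosomes the medians were 0.03 and 0.04. Chromosome 12 had medians of 0.34 and 0.14, with 8 higher and 0 lower, and chromosome 13 medians of -0.20 and -0.27, with 2 higher and 11 lower. Without chromosomes 6 and 15, 176 genes were higher and 260 lower of 8120. Copy number was not measured, and whether the chromosomes differ in number between the lines was not tested.

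**Figure D5:**
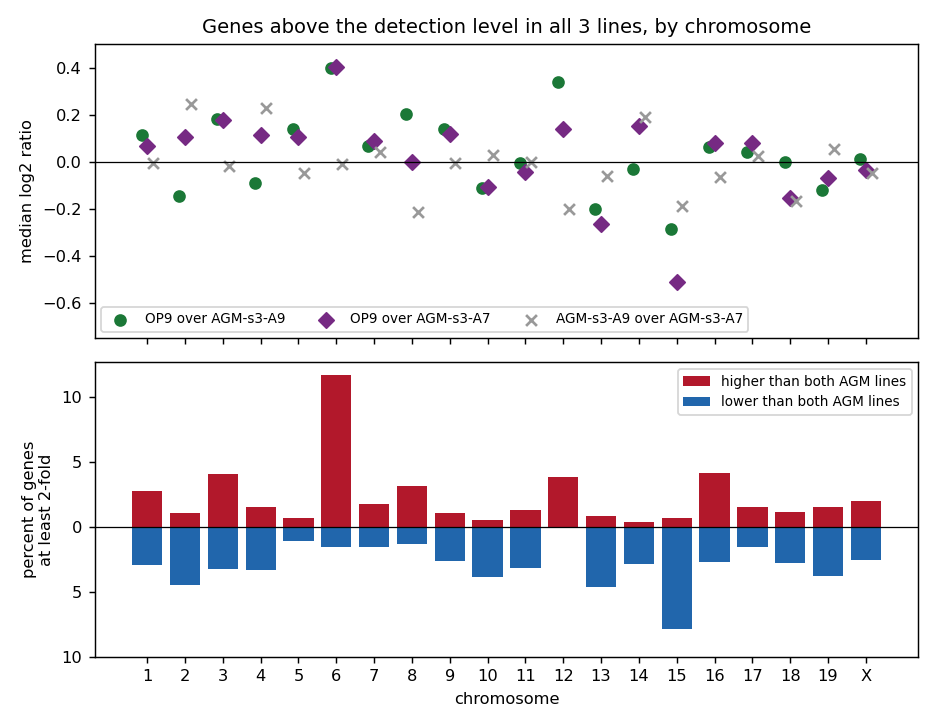
Upper panel, median log2 ratio of genes above the detection level in all 3 lines, by chromosome, for OP9 over AGM-s3-A9 (circles), OP9 over AGM-s3-A7 (diamonds) and AGM-s3-A9 over AGM-s3-A7 (crosses). Lower panel, percent of these genes at least 2-fold higher (red, upward) or lower (blue, downward) in OP9 than in both AGM lines. Chromosome 6 stands highest, at 0.40 for both OP9 ratios with 11.7% of genes called higher, and chromosome 15 lowest, at -0.28 and -0.51 with 7.87% called lower.

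Probe sets for 1 gene give the only measure of error within these arrays. Pairs on the same array type gave a robust SD of the log2 ratio of 0.33 for OP9 over AGM-s3-A9 and 0.31 for OP9 over AGM-s3-A7, each over 1020 genes; the 2-fold threshold is 1 on this scale. Of 38 higher genes with a further measured probe set of the same array type, 36 showed the same direction there, 18 at least 2-fold (47.4%) and 0 at least 2-fold opposite. Of 53 lower genes 37 agreed in direction, 26 at least 2-fold (49.1%), and 1 was opposite by 2-fold. On another array type, a separate hybridisation, 30 of 34 higher and 37 of 55 lower genes agreed in direction, and 11 (32.4%) and 19 (34.5%) reached 2-fold. Genes near the threshold are ordered by less than this error: Cdiptos, Slc25a40 and Med6 lay just inside on the higher side, at 2.003-fold to 2.01-fold, and Nars, Gadd45a and Hnrnph2 just outside, at 1.997-fold to 1.999-fold. On the lower side Nhsl2, Ppm1j and Sec14l1 lay just inside, each at 2.003-fold, and Arhgef25, Ctse and B4galt5 just outside, at 1.99-fold to 1.998-fold.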

How the data were processed

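The authors deposited 1 linear intensity per probe set and array for 36899 probe sets in all. How the arrays were scanned, background-corrected, summarised over probes and scaled is not given in the sources used here. Per the labels' protocols, 6 ug of total RNA went into each cRNA preparation. The members and gene lists were chosen with earlier results of these data known.

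Log2 intensities were quantile normalized within each array type, since the trimmed means of the deposited values differed by up to 61.1% between lines. This removes any general shift between lines. Values were raised to the detection level, which combines the array median with the 95th percentile of 34 negative controls. Of 36701 probe sets other than the 198 controls, 29131 had 1 symbol in the platform annotation, 724 several and 6846 none; 15964 genes were named. RefSeq's table of GRCm38.p6, which holds 99.8% of them, gave chromosomes and gene order. For each gene the probe set with the highest mean log2 level above the detection level was used; no fold is computed between genes or array types.

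Called means at least 2-fold outside both AGM lines. Named were, per direction, the 12 genes with the largest smaller fold above the detection level in all lines and the 12 with the largest bounds, up to 6 members per direction of each of 34 lists, the measured Hox genes and a fixed set of lineage and support genes. Further list members and neighbours are named as examples after their values were seen. No test across arrays is possible with 1 array per line and type. Alternatives changed the normalization, floor, fold, use of the AGM lines, array types and probe sets. Without chromosomes 6 and 15 was added after seeing the data. The calling code was run on simulated data, with changes only in bright probe sets and past the threshold. Its noise was far below that between probe sets of a gene, so it gives no error rate for these calls. Python 3.11.15, numpy 2.4.6 and pandas 2.3.3 were used.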

Additional observations from a re-analysis of the deposited data

How the results depend on the processing

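Against 339 higher and 413 lower probe sets, the array median alone as floor gave 756 and 822, a threshold of 3-fold 81 and 171, a threshold of 1.5-fold 1095 and 960, and MG-U74A alone 181 and 244; with the mean of the AGM lines 646 were lower. Against 237 higher and 303 lower genes, the same settings gave 408 and 486, 61 and 132, 726 and 675, and 150 and 197, and the mean of the AGM lines gave 466 lower. Under 75th percentile scaling 223 of the 237 and 301 of the 303 remained called. With the 75th percentile of the array type as floor 179 genes were higher and 231 lower, and 141 of the 237 (59.5%) and 185 of the 303 (61.1%) remained called. The yardstick for list medians was the robust SD of 1 log2 ratio, 0.33 against AGM-s3-A9 and 0.31 against AGM-s3-A7. It exceeds some of the medians themselves, so that a small median could change sign within it. Of 546 recomputed list medians 529 moved by less than this SD. The others were the osteoblast median against AGM-s3-A9, -0.23 under 75th percentile scaling and -0.24 under trimmed mean scaling; the chondrocyte median against AGM-s3-A9, which turned to -0.10 over 5 members on MG-U74A alone; and smooth muscle against AGM-s3-A9, -1.12 on MG-U74A alone. With the 75th percentile of the array type as floor, the medians against AGM-s3-A7 were -0.32 for Hox, 0.62 for hematopoietic support and 0.34 for the FGF pathway. The IGF axis against AGM-s3-A9 was -1.22 on MG-U74A alone, -0.59 without MG-U74C and -0.52 when all probe sets of a gene entered by their median, and against AGM-s3-A7 -0.67 on MG-U74A alone. Collagens against AGM-s3-A7 were -0.58 with the array median as floor, and complement against AGM-s3-A9 was 0.45 without probe sets of possible cross-hybridisation. Without chromosomes 6 and 15, Hox was -1.43 and -1.502 and complement 0.53 and 0.11. Grb10 turned to -0.94 on MG-U74A alone, without MG-U74C and when suffixes of possible cross-hybridisation were left out. The cause was not tested. Of 1172 recomputed values of named genes 994 moved by less than 0.33, 175 moved further and 3 turned, all of Grb10. Of 132 counts of list members 113 were within 1.5 times. There is 1 array per line and type, and levels below the detection level have no order. No paired analysis was possible because each line has 1 array per array type.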
